A study of Mus musculus with 4 samples.

Results

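Transcripts of 10 genes of neutrophils and innate defence were examined in mammary epithelial cells of 4 week-old mice, 2 samples from animals carrying MMTV-Cre and 2 from wild-type littermates, with 1 array per sample. All mice were congenic FVB/NJ. The 10 genes were S100a8, S100a9, Cxcr2, Csf3r, Lcn2, Ltf, Pglyrp1, Slpi, Cd14 and Lbp, out of 22180 genes with a probe set of their own. Each was taken from probe sets whose annotation gave that symbol alone. Where a gene had several, the probe set was to be chosen by its mean level over the 4 arrays, but each of the 10 genes had only 1, so that the mean decided no choice here. In MMTV-Cre mice the recombinase Cre is expressed from the promoter of a mammary tumour virus, which is active in mammary epithelium and in some other tissues. The labels name neither the transgenic line nor whether a sample pools animals, and the Cre transcript itself was not analysed here. Per the labels, cells came from inguinal tissue free of lymph node, by collagenase digestion and centrifugation against stroma.

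Neutrophils carry the receptors encoded by Cxcr2 and Csf3r, which sense chemokines and granulocyte colony-stimulating factor, and fill their cytosol and granules with antimicrobial proteins. Several of these proteins are also made by epithelium. Luminal cells of the mammary gland secrete lactoferrin, lipocalin and protease inhibitors, and Cd14 and Lbp are used as markers of luminal progenitors. A transcript level in a cell preparation therefore does not name its source, and in bulk samples fewer cells of a type and less RNA per cell cannot be told apart.

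The preparations carried the transcripts of epithelium in every array. Epcam, an epithelial adhesion molecule gene, stood at 8.67 and 8.52 in the MMTV-Cre arrays, against 8.61 and 8.64 in the wild-type arrays, on the log2 scale of the deposited values. The luminal keratin gene Krt8 stood between 10.30 and 10.40 over the 4 arrays. Array medians lay between 2.83 and 2.86. Wild-type replicate 1 stood apart, where 94 genes exceeded the next highest array by 1 log2 unit or more. The MMTV-Cre arrays had 2 and 3 genes of that kind and wild-type replicate 2 had 2. The T cell gene Cd3g was among its high transcripts, at 6.63 there and at 2.71 and 2.54 in MMTV-Cre and 2.51 in wild-type replicate 2. The lymph node list of 4 measured genes lay at −0.86 and −0.55 in MMTV-Cre, against 2.07 and −0.66 in wild-type, relative to its mean over the arrays. Its gene Glycam1, for a mucin-like glycoprotein bound by L-selectin, stood at 2.72 and 2.75 in MMTV-Cre, against 10.19 and 2.87 in wild-type, and Cxcl13 at 2.65 and 3.60, against 6.19 and 3.13. Glycam1 and Cxcl13 were highest in wild-type replicate 1, although the labels describe the tissue as free of lymph node. The rise of the list there came mostly from them, since its other genes, Madcam1 and Cr2, were dim. Madcam1 stood at 2.49 and 2.91 in MMTV-Cre, against 2.98 and 2.73 in wild-type, and Cr2 at 2.29 and 2.12, against 2.50 and 2.21. Ptprc, the pan-leukocyte gene for CD45, stood at 4.49 and 4.68 in MMTV-Cre, against 6.96 and 4.82 in wild-type.

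None of the 10 genes passed the test of MMTV-Cre against wild-type by limma with Benjamini-Hochberg adjustment over all 22180 genes, where 0% of genes passed an adjusted p under 0.05. The smallest adjusted p among the 10 was 0.963, which was also the smallest of all genes. At an unadjusted p under 0.05 there were 0 of the 10 genes, against 4.56% of all genes. The direction was downward in MMTV-Cre for 8 genes and upward for 2, Lbp and Pglyrp1. Both MMTV-Cre arrays lay below both wild-type arrays for 4 of the 10, Cxcr2, Csf3r, Ltf and Slpi, where 16.3% of all genes did so. Both lay above for 0 of the 10, where 16.6% did so. Separation in either direction was thus 4 of 10 against 33.0% of all genes, a share near the background. The median difference, MMTV-Cre minus wild-type, was −0.10 over the 10 genes and −0.0017 over all genes. By design, two-sided exact permutation tests of 2 arrays against 2 cannot give a p under 0.333, and the median half-width of a 95% interval over the 10 genes was 0.41 log2 units.

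**Figure D1:**
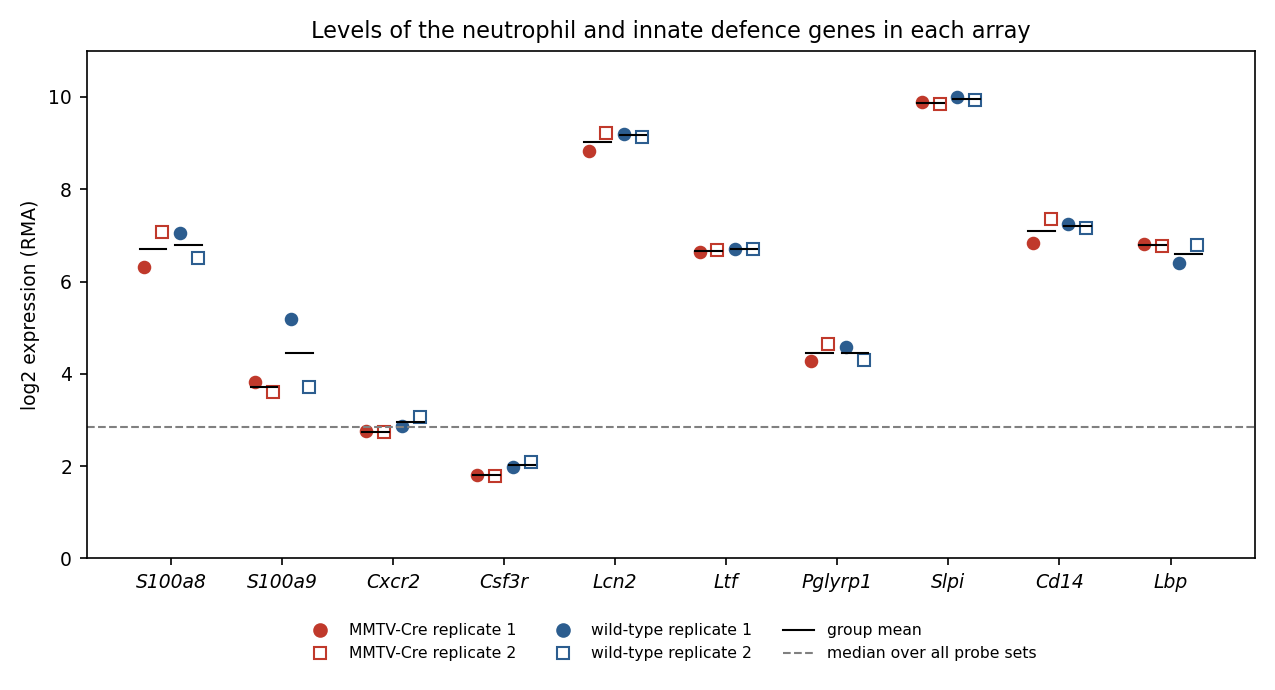
Log2 expression (y axis) of each gene (x axis) in the 2 MMTV-Cre arrays (red) and the 2 wild-type arrays (blue), with group means as bars and the median over all probe sets, 2.84, as a dashed line. S100a9 is high in wild-type replicate 1 alone, Cxcr2 lies at the dashed line and Csf3r below it, and Slpi and Lcn2 stay within 0.15 and 0.39 log2 units over the arrays.

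S100a8 and S100a9 encode the partners of calprotectin, a protein that binds zinc and manganese and so starves microbes of them. They are neighbours on mouse chromosome 3 with 0 annotated RefSeq genes starting between them. S100a8 stood at 6.32 and 7.08 in MMTV-Cre, against 7.06 and 6.52 in wild-type. Each group held a high and a low array, and the groups overlapped. The difference was −0.09 (95% interval −0.83 to 0.65, limma adjusted p = 0.998). It turned to 0.29 without MMTV-Cre replicate 1 and to 0.18 without wild-type replicate 1.

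S100a9 followed another pattern. It stood at 3.82 and 3.60 in MMTV-Cre, against 5.19 and 3.70 in wild-type. The high value belonged to wild-type replicate 1, and wild-type replicate 2 lay between the MMTV-Cre arrays. The difference was −0.74 (−1.88 to 0.40, limma adjusted p = 0.963), the largest in size of the 10 genes. Without wild-type replicate 1 it was 0.0051. The range of S100a9 over the 4 arrays was 1.58 log2 units, and 0.356% of all genes had a range as wide or wider. S100a8 had a range of 0.76, matched or exceeded by 5.65% of genes. In wild-type replicate 1 S100a9 lay 1.11 above its own mean over the arrays and S100a8 0.31 above its own. In MMTV-Cre replicate 2, S100a8 lay 0.33 above its mean and S100a9 stood at −0.48 relative to its own.

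S100a9 was the only gene of the 10 whose range reached 1 log2 unit, and the genes nearest to it in pattern were sought among the 11656 genes with a mean at or above 2.84. Likeness was the root mean square distance over the 4 arrays between values centred on each gene's own mean. The nearest were Tagap at 0.042 log2 units, Epsti1 at 0.059 and Selplg at 0.11. Selplg encodes the leukocyte ligand of P-selectin and Tagap a GTPase-activating protein of T cells, while Epsti1 was not placed with any cell type here. Tagap stood at 3.07 and 2.93 in MMTV-Cre, against 4.43 and 2.92 in wild-type, so that it too was high in wild-type replicate 1 alone. Epsti1 stood at 2.73 and 2.59, against 4.24 and 2.76, and Selplg at 2.75 and 2.52, against 4.38 and 2.68. These last genes reached the mean of 2.84 only through wild-type replicate 1. S100a9 met the range rule through the same array, so that genes near it in pattern had to be high in that array. The pan-leukocyte list lay 0.95 above its average in that array and at −0.35 and −0.30 relative to it in MMTV-Cre and −0.30 in wild-type replicate 2. The lymph node list had its rise, mostly from Glycam1 and Cxcl13, in the same array. The part of those leukocyte and lymph node transcripts in the level of S100a9 was not tested.

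The upstream sequences of S100a8 and S100a9 are shown because these neighbours differed in array pattern, and those of Lcn2 and Pglyrp1 because they ranked the arrays in the same order as S100a8. Each is the 250 bases before the gene's start in RefSeq, build GRCm38.p6, read on the gene's own strand, with capitals marking motif matches. RefSeq windows were used for 8 of the 10 genes.
S100a8, chr3:90668821-90669070, plus strand: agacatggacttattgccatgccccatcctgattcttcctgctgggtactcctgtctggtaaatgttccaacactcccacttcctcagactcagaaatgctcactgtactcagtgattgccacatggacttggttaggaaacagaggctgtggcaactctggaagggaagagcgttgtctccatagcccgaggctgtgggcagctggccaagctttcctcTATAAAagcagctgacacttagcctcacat
S100a9, chr3:90695722-90695971, minus strand: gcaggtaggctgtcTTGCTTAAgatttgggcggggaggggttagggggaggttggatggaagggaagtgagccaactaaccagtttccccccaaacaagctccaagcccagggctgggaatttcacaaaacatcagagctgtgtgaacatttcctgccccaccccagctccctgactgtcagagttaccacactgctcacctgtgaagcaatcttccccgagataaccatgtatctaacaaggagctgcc
Lcn2, chr2:32387740-32387989, minus strand: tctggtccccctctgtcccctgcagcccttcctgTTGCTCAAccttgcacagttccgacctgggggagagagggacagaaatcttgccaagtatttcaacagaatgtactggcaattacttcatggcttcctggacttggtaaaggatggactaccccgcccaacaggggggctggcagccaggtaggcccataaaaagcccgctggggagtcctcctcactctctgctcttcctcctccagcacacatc
Pglyrp1, chr7:18884440-18884689, plus strand: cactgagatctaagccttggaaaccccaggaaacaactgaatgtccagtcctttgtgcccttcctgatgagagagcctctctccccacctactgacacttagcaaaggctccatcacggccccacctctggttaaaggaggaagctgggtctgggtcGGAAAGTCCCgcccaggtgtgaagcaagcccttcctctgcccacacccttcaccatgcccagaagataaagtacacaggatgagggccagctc

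Motifs were searched on both strands in the same 250 bases of all 32851 windows of the table. The TATA box letters TATAAA began 30 bases before the start of S100a8 and were in 1 of the 8 windows, against 12.4% of all windows. A motif of C/EBP type, the myeloid and epithelial transcription factor family, spelled TTGCNNAA, began 236 bases before S100a9 and 216 before Lcn2. It was in 4 of the 8 windows, the others being Ltf and Slpi, against 9.56% of all windows. A loose NF-kB motif, spelled as GGG and TTCC with any 3 bases between them, was found on the opposite strand 93 bases before Pglyrp1 and 129 before Csf3r, in 2 of the 8 windows against 4.65% of all. The 3 motifs did not overlap in these windows, and matching letters describe the sequence without showing that a factor binds.

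The receptors of neutrophils gave low signals, near or below the median over all probe sets. Cxcr2, the receptor for the chemokines that draw neutrophils into tissue, stood at 2.76 and 2.73 in MMTV-Cre, against 2.86 and 3.06 in wild-type. Csf3r, the receptor for granulocyte colony-stimulating factor, stood at 1.81 and 1.79 in MMTV-Cre, against 1.98 and 2.08 in wild-type. All 4 values of Csf3r and both MMTV-Cre values of Cxcr2 were below 2.84, the median over all probe sets, so that the sizes of their differences are uncertain. The differences were −0.22 for Cxcr2 (−0.54 to 0.11, limma adjusted p = 0.963) and −0.23 for Csf3r (−0.53 to 0.07, limma adjusted p = 0.963). For both receptors the highest array was wild-type replicate 2, not the array with the T cell transcripts. Without wild-type replicate 1 the differences were −0.32 for Cxcr2 and −0.28 for Csf3r, and without wild-type replicate 2 they were −0.12 and −0.18. The mast cell list of 7 genes was likewise higher in both wild-type arrays, at −0.26 and −0.15 in MMTV-Cre, against 0.19 and 0.23 in wild-type, relative to its mean. Of its genes 0 passed and groups were separate for 6, 5 of them lower in MMTV-Cre, where 16.3% of all genes were. Cpa3, a mast cell protease gene, stood at 3.49 and 4.13 in MMTV-Cre, against 4.61 and 4.46 in wild-type, and Mcpt4 at 2.69 and 3.06, against 3.77 and 3.73. The part of mast cell transcripts in these receptor levels was not tested.

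Of 8 genes for ligands and growth factors that recruit neutrophils, 6 had a mean above that median. Csf3, which encodes granulocyte colony-stimulating factor, stood at 6.68 and 7.27 in MMTV-Cre, against 7.001 and 6.80 in wild-type. The chemokine gene Cxcl2 stood at 8.77 and 9.003 in MMTV-Cre, against 8.72 and 8.84 in wild-type, and Cxcl1 at 8.24 and 8.57, against 8.26 and 8.24. Cxcl15 was the only one of these 4 with separate groups, at 6.99 and 6.95 in MMTV-Cre, against 6.61 and 6.74 in wild-type. Of these 8 recruitment genes 0 passed in either direction, and the median difference was 0.09. Groups were separate for 2, both higher in MMTV-Cre, where 16.6% of all genes were.

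Other neutrophil genes were dim in all 4 arrays. Of 19 measured genes on the neutrophil list, 18 had a mean below 2.84. The exception was Itgam, the integrin chain of myeloid and natural killer cells, at 3.15 and 3.06 in MMTV-Cre, against 3.01 and 3.16 in wild-type. The granule genes Mpo and Elane stood at 2.57 and 2.46 and at 1.94 and 2.20 in MMTV-Cre, against 2.63 and 2.52 and 1.84 and 2.07 in wild-type. Ly6g, the surface marker of mouse neutrophils, stood at 1.62 and 2.09 in MMTV-Cre, against 1.28 and 1.53 in wild-type, lowest in wild-type replicate 1. The highest value of any gene of the list in any array was 3.16. The list's mean level was 2.18 and 2.25 in MMTV-Cre, against 2.15 and 2.26 in wild-type. No gene of the list passed, and the median difference was 0.02. In both MMTV-Cre arrays 4 were higher and 2 lower, where 16.6% and 16.3% of all genes were. Dim transcripts of this list do not show that neutrophils were absent, and their presence was not tested.

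**Figure D2:**
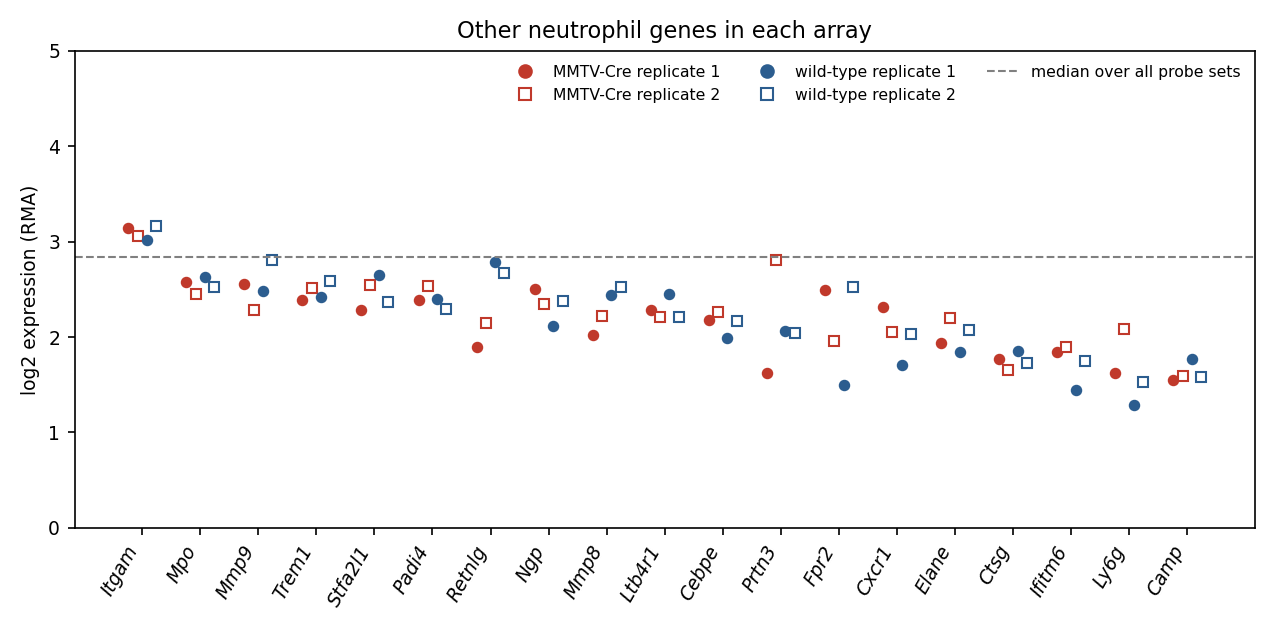
Log2 expression (y axis) of 19 other neutrophil genes (x axis, ordered by mean level) in the MMTV-Cre arrays (red) and the wild-type arrays (blue), with the median over all probe sets, 2.84, as a dashed line. Only Itgam lies above the line in every array, and the list has no rise in wild-type replicate 1, where its mean level was 2.15.

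Of the 4 genes taken as coding for secreted defence proteins of both neutrophils and epithelium, Lcn2, Ltf and Slpi gave bright signals. Pglyrp1 gave a lower one. Lcn2 encodes lipocalin-2, which captures the siderophores that bacteria use to take up iron. It stood at 8.83 and 9.22 in MMTV-Cre, against 9.20 and 9.13 in wild-type, with the low value in MMTV-Cre replicate 1. The difference was −0.14 (−0.55 to 0.27, limma adjusted p = 0.988), and 0.06 without MMTV-Cre replicate 1.

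Ltf encodes lactoferrin, the iron-binding protein of milk and of neutrophil granules. It stood at 6.65 and 6.69 in MMTV-Cre, against 6.70 and 6.70 in wild-type. These arrays lay within 0.053 log2 units of each other, a narrower range than that of almost every gene, since 99.0% of genes had a range as wide or wider. The difference was −0.031 (−0.32 to 0.26, limma adjusted p = 0.998).

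Slpi encodes an inhibitor of neutrophil elastase and other serine proteases. It stood at 9.88 and 9.86 in MMTV-Cre, against 10.004 and 9.92 in wild-type, lower in both MMTV-Cre arrays by a small amount. The difference was −0.10 (−0.39 to 0.20, limma adjusted p = 0.988), and −0.055 without wild-type replicate 1. Pglyrp1 encodes a protein of neutrophil granules that binds bacterial peptidoglycan. It stood at 4.28 and 4.64 in MMTV-Cre, against 4.58 and 4.31 in wild-type, so that each group again held a high and a low array. The difference was 0.02 (−0.42 to 0.46, limma adjusted p = 0.999). It turned to −0.16 without MMTV-Cre replicate 2 and to −0.12 without wild-type replicate 2.

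Among 21 other measured genes for secreted defence and acute-phase proteins, 0 passed, and the median difference was 0.0067. In both MMTV-Cre arrays 3 were higher and 1 lower, where 16.6% and 16.3% of all genes were. Of the 21, Wfdc2, of the same protein family as Slpi, stood at 7.83 and 7.91 in MMTV-Cre, against 7.81 and 7.86 in wild-type. Wfdc18 stood at 7.04 and 6.98 in MMTV-Cre, against 6.87 and 6.98 in wild-type. The lysozyme gene Lyz2, which is strong in macrophages and neutrophils, stood at 6.02 and 6.54 in MMTV-Cre, against 7.20 and 6.33 in wild-type, and was highest in wild-type replicate 1, as S100a9 was.

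The lipopolysaccharide sensors Lbp and Cd14 differed from each other in array pattern. Lbp encodes the serum protein that hands lipopolysaccharide to Cd14, the co-receptor that passes it on to Tlr4 and Ly96. Lbp stood at 6.82 and 6.78 in MMTV-Cre, against 6.41 and 6.79 in wild-type. The low value was that of wild-type replicate 1, the other arrays lying within a narrow band. The difference was 0.20 (−0.20 to 0.60, limma adjusted p = 0.973) and 0.0082 without wild-type replicate 1. Cd14 stood at 6.84 and 7.35 in MMTV-Cre, against 7.24 and 7.16 in wild-type, with the MMTV-Cre arrays on either side of the wild-type arrays. The difference was −0.11 (−0.58 to 0.37, limma adjusted p = 0.990), and 0.15 without MMTV-Cre replicate 1. Among 11 other genes of lipopolysaccharide recognition 0 passed, and the median difference was 0.08. In both MMTV-Cre arrays 1 was higher and 1 lower, where 16.6% and 16.3% of all genes were. Tlr4 stood at 6.14 and 5.96 in MMTV-Cre, against 5.70 and 5.98 in wild-type, lowest in wild-type replicate 1, as Lbp was. Ly96 stood at 6.99 and 6.86 in MMTV-Cre, against 6.92 and 7.04 in wild-type.

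**Figure D3:**
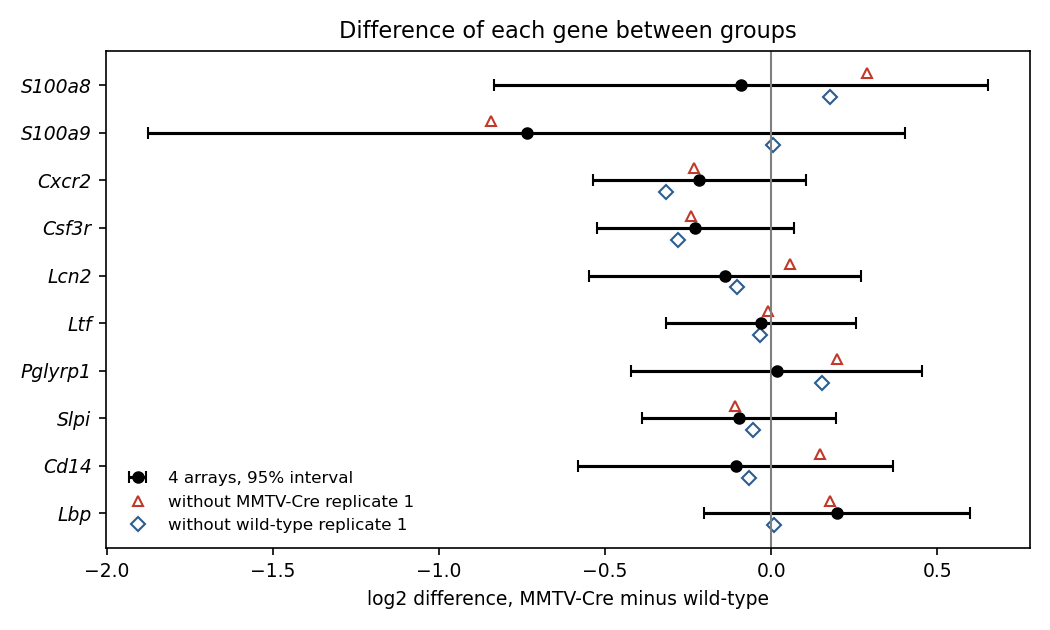
Log2 difference, MMTV-Cre minus wild-type (x axis), of each gene (y axis), with its 95% interval from limma over 4 arrays (black), and the difference without MMTV-Cre replicate 1 (triangles) or without wild-type replicate 1 (diamonds). Every interval includes 0, and the difference of S100a9, −0.74 over 4 arrays, is at 0.0051 without wild-type replicate 1.

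Epithelial and leukocyte markers were set beside the 10 genes array by array. Relative to its mean over the 4 arrays, the T and NK cell list lay at −0.65 and −0.52 in MMTV-Cre, against 1.78 and −0.61 in wild-type. The B cell list lay at −0.32 and −0.22 in MMTV-Cre, against 0.85 and −0.31 in wild-type. The largest rise in that list was of Ighm, at 3.43 and 3.80 in MMTV-Cre, against 7.36 and 3.67 in wild-type. Its dim genes Pax5 and Cd22 rose little, at 2.15 and 2.40 and at 2.02 and 2.20, against 2.48 and 2.13 and 2.40 and 2.18. S100a9 shared the rise in wild-type replicate 1, while Cxcr2 lay at 0.0077 and Csf3r at 0.06 in that array, relative to their own means. The macrophage list did not rise there, with −0.23 and 0.25 in MMTV-Cre, against −0.01 and −0.0034 in wild-type. Its defining genes Csf1r and Adgre1 stood at 3.86 and 4.12 and at 2.56 and 2.86 in MMTV-Cre, against 3.95 and 4.19 and 2.995 and 2.61 in wild-type.

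The luminal progenitor list, made of 9 other genes of these cells, lay at −0.11 and 0.01 in MMTV-Cre, against 0.05 and 0.05 in wild-type, and was lowest in MMTV-Cre replicate 1. So were Lcn2 at −0.27, Cd14 at −0.31, S100a8 at −0.43 and Pglyrp1 at −0.17, relative to their own means. Lbp, the other luminal progenitor gene of the 10, lay at 0.12 in that array. Most other lists were lowest there too, among them pan-leukocyte at −0.35, macrophage at −0.23 and neutrophil recruitment at −0.18. The neutrophil, secreted defence, lipopolysaccharide recognition, S100, endothelial and general epithelial lists were not. Of the progenitor list 0 genes passed, and groups were separate for 4 of 9, all lower in MMTV-Cre, where 16.3% of all genes were. The casein gene Csn3, a member of the list, stood at 8.61 and 8.57 in MMTV-Cre, against 8.59 and 8.55 in wild-type. The general epithelial list lay at 0.05 and 0.01 in MMTV-Cre, against −0.03 and −0.02 in wild-type. The part of any of these cell types in the 10 genes was not tested.

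**Figure D4:**
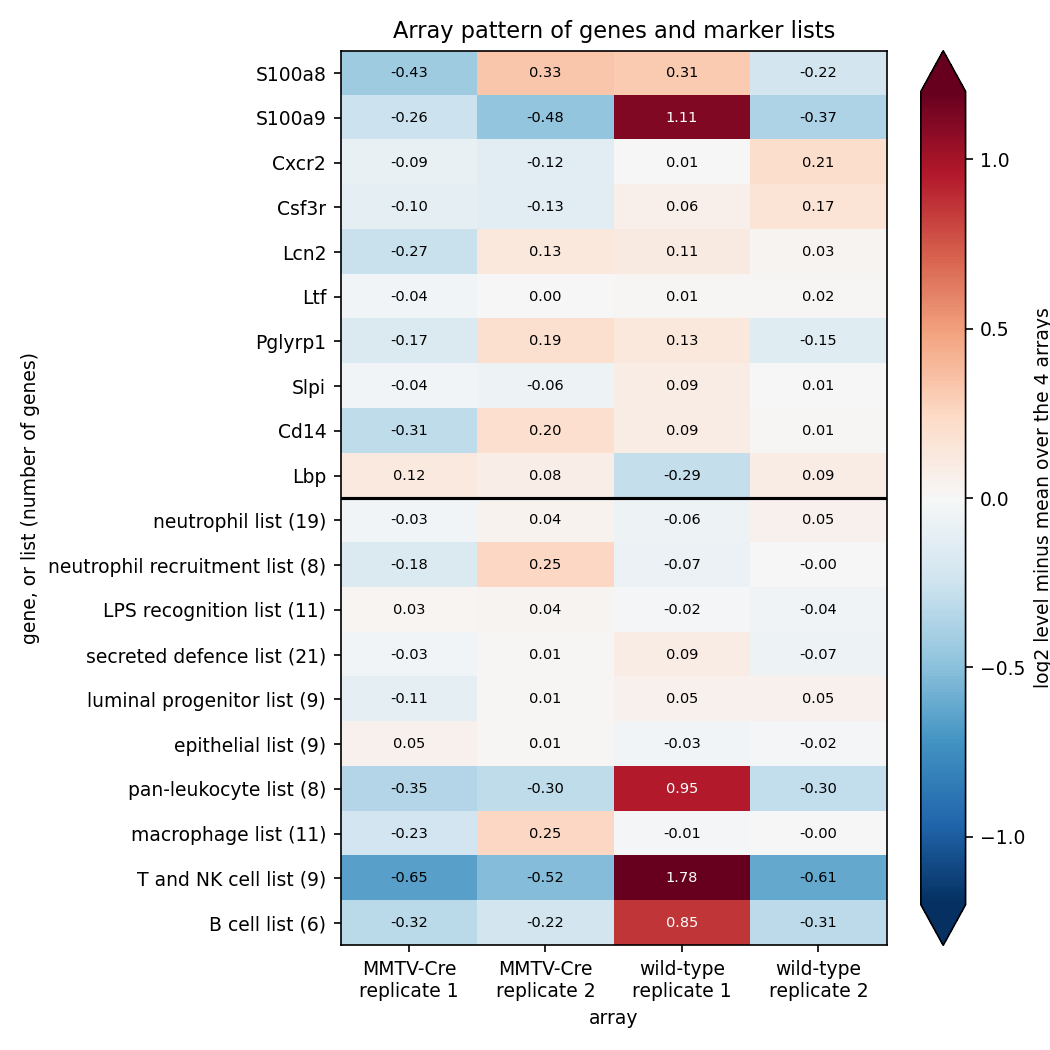
Log2 level minus its own mean over the 4 arrays (colour and printed value) for each of the 10 genes and, under the line, the mean of 10 marker lists, in each array (x axis), with the number of genes in parentheses. The rise of S100a9 in wild-type replicate 1, 1.11, stands in the same column as the T and NK cell list at 1.78, while the neutrophil list is at −0.06 there and S100a8 is at 0.31 there and 0.33 in MMTV-Cre replicate 2.

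By role, the 4 genes taken as leukocyte genes (S100a8, S100a9, Cxcr2, Csf3r) had a median difference of −0.22, and the 6 shared with epithelium had one of −0.06. The roles were assigned to the genes, and the source of their transcripts here was not tested. S100a8, placed with the leukocyte genes, ranked the arrays as the shared genes Lcn2, Pglyrp1 and Cd14 did. Of the 4 leukocyte genes the difference was negative for all, and 2 were lower in MMTV-Cre with separate groups. Of the 6 shared genes it was negative for 4, and again 2 were lower with separate groups, where 16.3% of all genes were. Without wild-type replicate 1 the medians were −0.14 and −0.04. The median of the shared genes turned to 0.10 without MMTV-Cre replicate 1, and that of the leukocyte genes was −0.34 without MMTV-Cre replicate 2.

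Within the S100 family, 14 relatives of S100a8 and S100a9 were measured and 0 passed. Groups were separate for 5 of them, all higher in MMTV-Cre, where 16.6% of all genes were, and the median difference was 0.08. S100a11 stood at 10.33 and 10.27 in MMTV-Cre, against 10.12 and 10.24 in wild-type. The epithelial member S100a14 stood at 7.25 and 7.09 in MMTV-Cre, against 6.59 and 7.03 in wild-type, lowest in wild-type replicate 1. S100a6 stood at 10.10 and 10.21 in MMTV-Cre, against 10.08 and 10.06 in wild-type. None of these 3 relatives shared the rise of S100a9 in wild-type replicate 1.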

How the data were processed

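The deposited values are log2 signals of probe sets that the authors obtained with oligo and RMA, per the submitters' processing notes, with versions and annotation build not given in the sources used here. The log2 scale was read from the values, which ran from 0.37 to 12.48. RMA equalises arrays, so a change common to most genes would be hidden, and levels of different probe sets do not order the abundance of their transcripts. Gene names came from the platform annotation. Of 41345 probe sets, 23521 had 1 symbol, 1814 several and 16010 no gene named here. For a gene with several, the one of highest mean signal was used, and dim genes were kept in the fit. Of the 10 genes, 9 had a mean no lower than 2.84, the median of all probe sets.

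Groups came from the sample titles and the comparison used limma 3.58.1 under R 4.3.3 (lmFit, eBayes, two-sided) over 22180 genes, with Benjamini-Hochberg adjustment at 0.05 and 95% intervals. The procedure was tested on simulated data. The labels call the samples biological replicates and name no batch, and the number of arrays limits the precision.

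The 10 genes and the gene lists were chosen with earlier results of these data known. Genes named from a list were the 4 with the highest mean signal over the arrays, a choice of genes that ranks no abundance, with fixed cell markers. Some listed genes were not analysed here. Alternatives changed the filter, the probe set rule, the normalization, the variance model, the replicate block, the threshold and the arrays included. Replicate numbers were not taken as pairs, since no label ties them.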

Additional observations from a re-analysis of the deposited data

How the results depend on the processing

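No gene of the 10 passed under any alternative run. The count of all genes past the threshold was 0 wherever 4 arrays were kept and p was adjusted, rose to 1012 when p under 0.05 was taken unadjusted, and ran from 0 to 7 with 1 array left out, the 7 without wild-type replicate 2. With the replicate block the count was 0 for all genes and 0 for the 10 genes. The deviations of same-numbered arrays from their group means correlated at −0.020 over genes. With 2 arrays per group, that value cannot show whether same-numbered samples were handled together, and no label ties them. Directions held in all 79 values of the 10 genes from alternatives that kept 4 arrays, with Csf3r lost to the filter on dim genes. Most of these values could not turn. The filter, probe set rule, variance model and replicate block leave the difference of a gene with 1 probe set unchanged. Only quantile normalization and centring of each array on its median could change it, and directions held under both. With 1 array left out, directions turned in 7 of 40 values. Over those, S100a8 ran from −0.47 to 0.29, S100a9 from −1.48 to 0.0051, Lcn2 from −0.33 to 0.058, Pglyrp1 from −0.16 to 0.20 and Cd14 from −0.36 to 0.15. The median difference ran from −0.34 to −0.14 for the leukocyte genes and from −0.13 to 0.10 for the genes shared with epithelium. Fits without an array leave a group with 1 sample, assumed to vary like the other group. The causes were not tested. Signals of Csf3r, Cxcr2 and most neutrophil genes lay near or below the median over all probe sets, which limits what can be said of them. No background level was measured.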

Other observations

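Some of the genes ranked the arrays alike, a pattern noticed after the values were seen. S100a8, Lcn2, Pglyrp1 and Cd14 were each lowest in MMTV-Cre replicate 1 and highest in MMTV-Cre replicate 2, with wild-type replicate 1 above wild-type replicate 2. That order was found in 4 of the 10 genes and in 4.79% of all genes. Csf3 and Cxcl3 had it among the 8 recruitment genes, Il1rn and Xdh among the 21 genes of secreted defence, and Tlr2 among the 11 genes of lipopolysaccharide recognition. Among leukocyte genes it was found in C1qb and Fcgr1 of 11 macrophage genes, Fcer1g of 8 pan-leukocyte genes and Prtn3 of 19 neutrophil genes. It was also found in 2 of 14 S100 relatives, in Krt19 of 9 general epithelial genes and in Pdgfra of 7 fibroblast genes. Of the 9 luminal progenitor genes and the 9 T and NK cell genes, 0 had it. The basal keratin gene Krt14 also had it, at 7.27 and 8.07 in MMTV-Cre, against 8.02 and 7.97 in wild-type.

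The acute-phase gene Saa3, also named after its values were seen, stood at 5.85 and 6.94 in MMTV-Cre, against 7.01 and 5.65 in wild-type, so that each group held a high and a low array, as with S100a8 and Pglyrp1. The dim neutrophil genes Retnlg and Mmp8, chosen in the same way, were lower in both MMTV-Cre arrays, at 1.89 and 2.14 and at 2.02 and 2.22, against 2.79 and 2.67 and 2.45 and 2.52 in wild-type. They were the 2 of 19 neutrophil genes with that separation, where 16.3% of all genes had it. In 4 others, Ly6g, Cxcr1, Ifitm6 and Cebpe, both MMTV-Cre arrays were higher, as in 16.6% of all genes. The list's median difference was 0.02.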
